A study of Homo sapiens with 18 samples.

Results

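The genes described here encode the human enzymes best known for removing DNA-RNA hybrids: the RNases H (RNASEH1 and the RNase H2 subunits RNASEH2A, RNASEH2B and RNASEH2C), the RNA helicases DHX9, AQR, DDX5 and DDX39B, and the exonuclease XRN2. They were chosen by name, as 9 of the 20163 protein-coding genes annotated on hg19, and each was read over its gene body plus 5 kb on each side. The measurement was DRIP-seq, in which genomic DNA is cut with restriction enzymes, fragments holding DNA-RNA hybrids are pulled down with the S9.6 antibody, and the fragments are sequenced. The cells were HCT116, a human colorectal carcinoma line, without any genetic change named in the labels. One group received no drug (NT), and the others received 10 μM CPT (camptothecin, which traps topoisomerase I on DNA) for 5 or 60 min; harvest and washing preceded lysis in all groups. Each treatment had 2 biological replicates, with 3 libraries from each: DRIP, DRIP after the DNA had been incubated with RNase H (called RNase H here), and input. Parallel pulldowns were pooled within a replicate. The values here are the places where peaks were called in the genes themselves; no RNA, protein or enzyme activity was measured in these libraries, so the cell line label could not be set against marker levels.

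A DNA-RNA hybrid forms when nascent RNA anneals to its template, and with the displaced DNA strand it makes an R loop. RNases H cut the RNA strand of a hybrid, several RNA helicases unwind it, and RNA processing factors limit its formation by packaging or degrading the transcript. Hybrids are common near transcription start sites with GC-rich sequence and near gene ends, where they have been linked to pausing and termination of RNA polymerase II.

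The lists of replicate 2 were longer than those of replicate 1 in every treatment, and every comparison below is read against that. In replicate 1 the DRIP lists numbered 30314 (NT), 33852 (5 min) and 41668 (60 min) peaks, and in replicate 2 they numbered 52967, 56543 and 72879. The RNase H lists numbered 473, 3439 and 5392 peaks in replicate 1 and 15790, 50353 and 67188 in replicate 2. Read depth is not part of the lists and was not used here, so a missing peak means no call above threshold and does not show an absence of hybrids. The 9 genes held 180 DRIP peaks in all. Replicate 1 gave 10 (NT), 12 (5 min) and 29 (60 min) of them, and replicate 2 gave the other 129, namely 22, 48 and 59.

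DDX39B, also called UAP56, a DEAD-box helicase of mRNA export, had no peak in any of the 12 lists. It lies on chromosome 6 in a stretch of 5029082 bp, chr6:28455353-33484434, that holds no peak of any list and takes in the whole windows of 184 protein-coding genes. No other stretch of more than 1 Mb without peaks held as many genes. The absence of peaks at DDX39B was thus shared by its whole neighbourhood, its cause was not tested, and the gene is counted below but not read. The other 8 genes each had a DRIP peak in at least 3 lists.

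The edges of the peaks fell on restriction sites much more often than positions in the windows did, which sets how finely a peak can be placed. Of 360 edges of DRIP peaks in the 8 genes, 150 (41.7%) lay within 2 bp of a cut position of the digestion enzymes (Bsr GI, Eco RI, Hind III, Ssp I and Xba I), whereas 1.46% of the positions in their windows did. Over all peaks of the 6 DRIP lists, 30.2% of 576446 edges did. The share was 50.0% and 43.2% in NT, 41.7% and 39.6% at 5 min, and 44.8% and 39.8% at 60 min. Every one of the 31 edges found at the same base in 2 or more lists was at such a site. The shares above count an edge once for each list that holds it. Counted once each, 86 of 296 edges in the 8 genes were at a site. There were 8 edges shared by at least 4 DRIP lists, and the sequences around 6 of them are shown because these edges recur in the results below. They are hg19 plus-strand reads of 30 bases with the recognition site in capitals.
DDX5 left edge, chr17:62499614-62499643, Ssp I: gacatgctctacAATATTcagcagctactt
DDX5 right edge, chr17:62503696-62503725, Xba I: tcttcagtgcccTCTAGAgtcatgggcttt
DHX9 upstream edge, chr1:182808178-182808207, Ssp I: cagaccctgcgaAATATTttgctgcatcag
RNASEH2A intragenic edge, chr19:12918172-12918201, Hind III: catgggctgaccAAGCTTtgttcctagaat
RNASEH2C intragenic edge, chr11:65486897-65486926, Bsr GI: gccaggcagctgTGTACAgtgagaagggat
RNASEH2C upstream edge, chr11:65490162-65490191, Bsr GI: tccttggatatcTGTACAgttgtgaggttt
The Xba I site at DDX5 ended a peak in all 6 DRIP lists, and the Ssp I site before DHX9 began one in 5. Of the 180 summits, 50 (27.8%) were within 10 bp of a cut position, against 4.5% of window positions, so a summit, too, could sit at a fragment end.

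**Figure D1:**
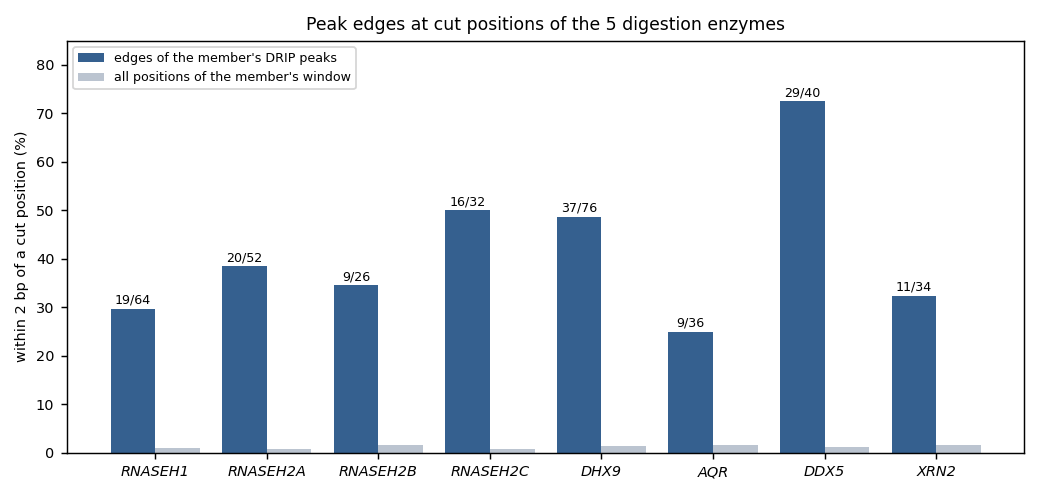
Percent of DRIP peak edges within 2 bp of a cut position of the 5 enzymes (dark bars, with the number of edges at a site over all edges) and percent of all positions of the same window within 2 bp (light bars), by gene. The dark bars run from 25.0% at AQR to 72.5% at DDX5, and no light bar is above 1.69%.

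The treatments differed in how many of the 9 genes carried a DRIP peak in both replicates. In NT 5 did, RNASEH1, RNASEH2A, RNASEH2C, DHX9 and DDX5, where the background over all protein-coding genes was 44.8%. The same 5 did at 5 min, against 48.8% of all genes. At 60 min all 8 readable genes did, with RNASEH2B, AQR and XRN2 added, against 58.8% of all genes. The 5 genes with a peak in all 6 DRIP lists compare with 33.0% of all genes, and the 1 gene with none, DDX39B, with 17.3%. No gene had a peak in both replicates at 5 min and in neither NT list, as 4.6% of all genes did. XRN2 alone did so at 60 min, as 6.85% of all genes did.

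The bases of a window under DRIP peaks gave the size of these differences. At 5 min, RNASEH1 and DHX9 had more covered bases in both libraries than in either NT library, 2 of 9 genes against 13.9% of all genes, and none had fewer in both, against 14.8%. At 60 min RNASEH1, RNASEH2B, DHX9, DDX5 and XRN2 had more, 5 of 9 against 24.4%, and none had fewer, against 6.62%. The median covered share over the 9 genes was 1.84% and 4.58% in NT, 6.91% and 20.6% at 5 min, and 8.17% and 21.7% at 60 min. Over all genes it was 0.0% and 0.944%, 0.375% and 1.41%, and 0.838% and 4.48%. No single difference passed a test: a two-sided exact permutation test of 2 libraries against 2 cannot go below p = 0.333. The 7 differences named above reached that value in the exact test, which became 0.857 after Benjamini-Hochberg adjustment over 18 tests. The other 11 had an exact p of 0.667 or 1. When DRIP peaks that met an RNase H peak of the same library pair were removed, 1 gene (DHX9) stayed above NT at 5 min and 2 genes (RNASEH2B and XRN2) at 60 min, and RNASEH2C and DDX5 then lay below NT at 5 min. After the same removal 10.8% of all genes lay above NT at 5 min and 15.7% at 60 min, and 20.4% lay below at 5 min and 13.2% at 60 min. The removed peaks of these genes all came from replicate 2.

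**Figure D2:**
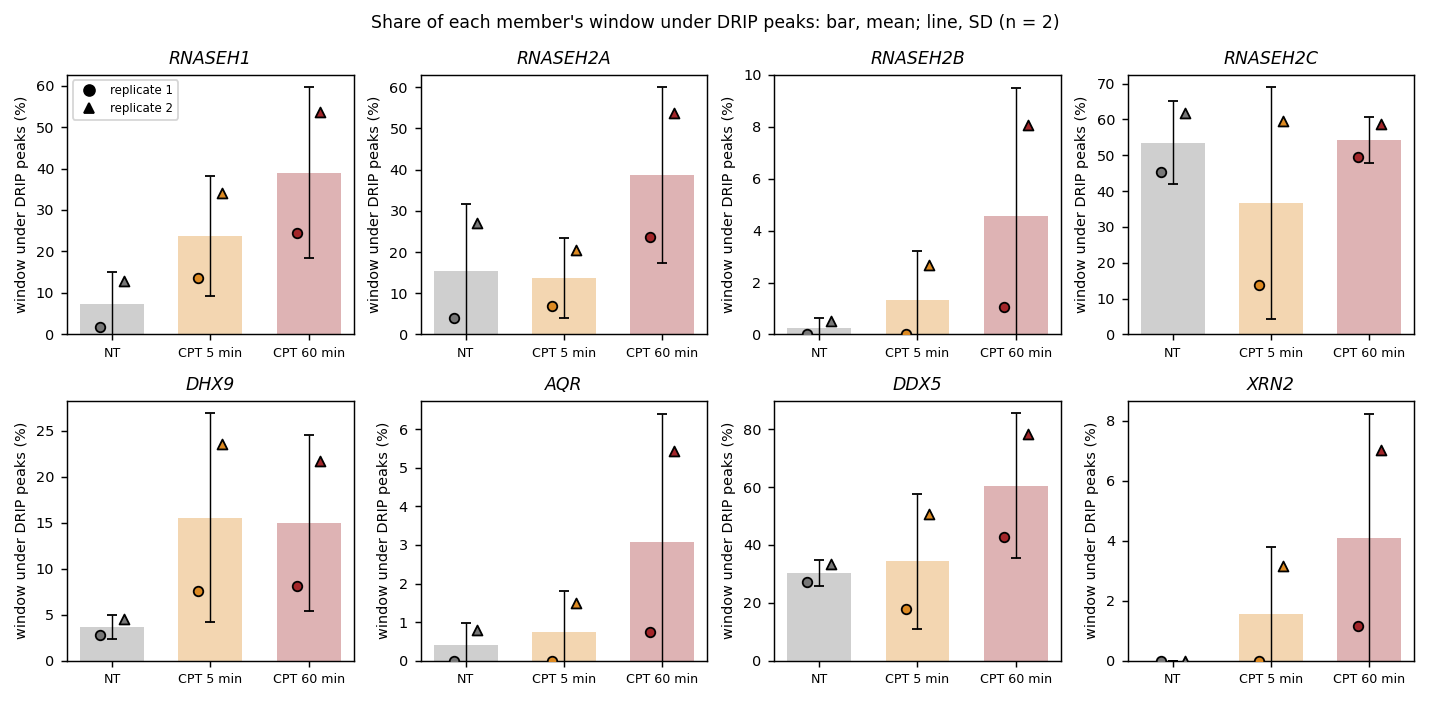
Percent of each gene's window (gene body plus 5 kb on each side) under DRIP peaks in NT and after 5 and 60 min of CPT. Circles are replicate 1 and triangles replicate 2, bars are means, and lines are the SD over 2 replicates, cut off at 0. Each panel has its own scale. The triangle is above the circle in every pair except where both are 0, as for XRN2 in NT.

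RNASEH1 encodes the RNase H that works alone, in the nucleus and in mitochondria. Its window on chromosome 2 had 494 and 3434 bases under DRIP peaks in NT, 3641 and 9139 at 5 min, and 6556 and 14425 at 60 min, in replicates 1 and 2. Both 5 min values and both 60 min values lay above both NT values, although 5 min replicate 1 was close to NT replicate 2. The mean difference from NT was 4426 bases at 5 min and 8526 at 60 min. It was 415.5 and 1470 bases without DRIP peaks met by RNase H peaks. The covered bases of each group had SDs of 2079 in NT, 3888 at 5 min and 5564 at 60 min (n = 2 each). The highest-ranked peak of every list lay in intron sequence, with its summit about 4 to 7 kb from the start site. It stood at the 33.1 and 83.7 percentile of its list in NT, where percentiles order the peaks of 1 list by fold enrichment and 100 is the top. It stood at 98.5 and 98.4 at 5 min and at 95.4 and 98.5 at 60 min. Both treated groups ranked above both NT values and overlapped each other, in lists of different lengths. In 5 min replicate 1 the peak was chr2:3599246-3601167, and its left edge recurred in 5 min replicate 2 and 60 min replicate 1. An RNase H peak of 60 min replicate 2, chr2:3599246-3604487 at percentile 98.6, overlapped this DRIP peak and had its summit at position 3599359. The 200 bases around the summit of the DRIP peak, chr2:3599317-3599516 on hg19, are shown in the sense of the gene. This peak ranked highest of the RNASEH1 DRIP peaks.
RNASEH1 intron summit: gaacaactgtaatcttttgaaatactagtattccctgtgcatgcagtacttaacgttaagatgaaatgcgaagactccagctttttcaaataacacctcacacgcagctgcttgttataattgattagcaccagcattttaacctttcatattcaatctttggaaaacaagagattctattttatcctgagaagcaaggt
This stretch has 35.5% G and C, a value above that of only 10.3% of summit windows in its list. It holds no run of 4 or more G or C (GGGG or CCCC), which would be in capitals, and 57.6% of the 33852 summit windows of that list hold one. The start site of RNASEH1 itself was under a peak in 3 of the 6 DRIP lists, 5 min replicate 2 and both at 60 min. A second annotated gene model of the same strand covers 21904 of the 26904 bases of the window, all but the upstream flank, and a peak there cannot be given to one of them.

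RNASEH2A encodes the catalytic subunit of RNase H2, the enzyme that also cuts at single ribonucleotides left in DNA. Its window had 685 and 4602 covered bases in NT, 1179 and 3513 at 5 min, and 4032 and 9173 at 60 min. The groups overlapped at both times, with mean differences from NT of -297.5 and 3959 bases. At 60 min each replicate was above its own NT library, by 3347 and 4571 bases. Peaks began at the Hind III site shown above, inside the gene, in NT replicate 1, 5 min replicate 1 and both 60 min lists. The start site was under a peak only in the replicate 2 lists, in all 3 treatments, each time in a peak that began at position 12917251. The gene HOOK2, on the opposite strand, covers all 17057 bases of this window. THSD8, on the same strand, covers 11551 of them, 6998 in the RNASEH2A body, and PRDX2 covers 217. No peak here can be given to RNASEH2A alone. The highest percentile in the window was 14.4 and 80.3 in NT, 16.9 and 77.4 at 5 min, and 77.9 and 90.4 at 60 min.

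RNASEH2B encodes an accessory subunit of RNase H2. It is the longest of the RNase H genes, with a body of 114374 bp, and all but 1 of its 13 DRIP peaks lay in or before the first 17 kb. It had 0 and 651 covered bases in NT, 0 and 3315 at 5 min, and 1322 and 10020 at 60 min. The 60 min values lay above both NT values, and the 5 min values overlapped them. A peak covered its start site in 4 lists, NT replicate 2, 5 min replicate 2 and both at 60 min. In 5 min replicate 2 it was chr13:51482249-51485563, in 60 min replicate 2 chr13:51482249-51485579, and the same left edge began a peak of 481 bp in 60 min replicate 1. Beyond it, 60 min replicate 2 had 6 more peaks between 2 and 17 kb from the start site, which no other DRIP list had.

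RNASEH2C encodes the other accessory subunit and showed the largest peaks of the set. It had 7635 and 10382 covered bases in NT, 2328 and 10022 at 5 min, and 8345 and 9865 at 60 min. The groups overlapped, and 5 min replicate 1 was the lowest of the 6. In NT replicate 1 and 60 min replicate 1 a single peak of 6635 bp, chr11:65480279-65486913, covered most of the gene with identical edges. In 5 min replicate 2 and 60 min replicate 2 it was 7884 bp with the same right edge, at the intragenic Bsr GI site shown above. In 5 min replicate 1 peaks of 1779 and 549 bp stood in its place, and the highest percentile there was 26.2, against 99.4 and 99.0 in NT, 95.0 in 5 min replicate 2, and 98.4 and 99.3 at 60 min. KAT5, the gene of an acetyltransferase that runs the opposite way, overlaps 5600 bp of the RNASEH2C body, and peaks carry no strand, so the signal of the pair cannot be split. An upstream peak that ended at the other Bsr GI site, at position 65490178, was found in 5 lists and was missing in 5 min replicate 1.

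DHX9, also called RNA helicase A, unwinds RNA duplexes and DNA-RNA hybrids. Its window on chromosome 1 had 1613 and 2683 covered bases in NT, 4430 and 13816 at 5 min, and 4790 and 12730 at 60 min. Both treated groups lay above both NT values and overlapped each other. The mean difference from NT was 6975 bases at 5 min and 6612 at 60 min. With DRIP peaks met by RNase H peaks removed, it was 4190.5 and 1283.5 bases. Ordered by covered share among all genes, DHX9 stood at percentile 73.1 and 66.1 in NT. It stood at 87.7 and 87.4 at 5 min, and at 77.3 and 74.8 at 60 min. The covered bases of each group had SDs of 6637 at 5 min, 5614 at 60 min and 757 in NT (n = 2 each). DHX9 was the only gene with a peak over its start site in all 6 lists. That peak began at -289 bp, at the Ssp I site shown above, in 5 lists and further upstream in 60 min replicate 2. In NT replicate 2 it was the highest-ranked DHX9 peak of all, chr1:182808193-182809831 at percentile 98.0, with its summit at -109 bp. In NT replicate 1, with the same left edge and a width of 1234 bp, it stood at percentile 1.66, so its place recurred and its rank did not. The 250 bases before the start site, chr1:182808232-182808481 on hg19 (sequence from the RefSeq table of GRCh38.p14), are shown because all 6 lists cover them. Capitals mark the Sp1-type GC box GGGCGG and the CCAAT box on either strand. A TATA box, searched as TATAAA on either strand, would also be in capitals; no motif overlaps another here.
DHX9 promoter: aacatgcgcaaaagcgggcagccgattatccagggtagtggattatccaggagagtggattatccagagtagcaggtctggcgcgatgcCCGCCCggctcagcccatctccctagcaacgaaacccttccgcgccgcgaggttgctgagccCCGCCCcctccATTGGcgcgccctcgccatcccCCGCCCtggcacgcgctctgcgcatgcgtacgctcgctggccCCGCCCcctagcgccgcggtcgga
It holds the GC box 4 times and the CCAAT box 1 time, all on the opposite strand, and no TATA box. Of 35116 RefSeq promoters of this length, 42.6% hold the GC box, 32.0% the CCAAT box and 10.7% the TATA box. With 28 CpG the DHX9 stretch exceeds 84.1% of them, where the median is 11. Replicate 1 had 2 (NT), 3 (5 min) and 6 (60 min) DHX9 peaks, and replicate 2 had 3, 14 and 10. Past the start site, the interval chr1:182812906-182814473 was met in 5 lists, all but NT replicate 2, and chr1:182814824-182816285 in 5 min replicate 2 and both 60 min lists and in neither NT list. RNase H peaks of 60 min replicate 2 met both intervals, and an RNase H peak of 5 min replicate 2 met the second. The 14 peaks of 5 min replicate 2 ran to the 3′ end and beyond, whereas the 10 of 60 min replicate 2 all lay within 31 kb of the start site.

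AQR encodes aquarius, an intron-binding helicase of the spliceosome. Its window, with a gene body of 117961 bp, had 0 and 1028 covered bases in NT, 0 and 1916 at 5 min, and 952 and 6942 at 60 min. The groups overlapped at both times, since 60 min replicate 1 fell below NT replicate 2. Within replicates the 60 min value was higher than NT in both, by 952 and 5914 bases. In replicate 2, RNase H peaks covered 2669 bases at 5 min and 8272 at 60 min, more than the DRIP peaks did. In replicate 1 there were none. Without DRIP peaks met by RNase H peaks, the mean difference from NT at 60 min was 259 bases, against 3433 with them. The only interval with both 60 min replicates lay upstream of the gene. It met 2 short peaks of 489 and 463 bp in replicate 1 and 1 peak of 2662 bp at percentile 95.1 in replicate 2, and no NT or 5 min DRIP peak. RNase H peaks of 5 min replicate 2 and 60 min replicate 2 also met it. AQR was the only readable gene with no DRIP peak over its start site in any list. The 250 bases before its start, chr15:35261944-35262193 on hg19 in the sense of the gene, again from RefSeq with the same capitals, are shown for comparison with DHX9.
AQR promoter: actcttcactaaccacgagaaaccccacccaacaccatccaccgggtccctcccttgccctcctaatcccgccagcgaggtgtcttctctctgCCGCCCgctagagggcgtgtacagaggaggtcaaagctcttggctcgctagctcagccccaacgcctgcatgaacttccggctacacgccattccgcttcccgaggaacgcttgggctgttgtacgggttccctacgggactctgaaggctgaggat
It holds 1 GC box and 16 CpG, more CpG than 59.0% of RefSeq promoters. Neither count says whether a hybrid forms there. For the other readable genes, the same stretch is given as CpG count and number of DRIP lists with a peak. RNASEH1 had 24 and 4, RNASEH2A 26 and 3, and RNASEH2C 12 and 3. RNASEH2B, DDX5 and XRN2 have more than 1 RefSeq start. They had 10 or 26 and 4, 22 to 27 and 5, and 29 or 31 and 1.

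DDX5, also called p68, is a DEAD-box helicase of splicing and transcription. Of the readable genes it had the largest share of its window covered at 60 min in replicate 2, 78.2%. The covered bases were 5436 and 6700 in NT, 3579 and 10127 at 5 min, and 8533 and 15591 at 60 min. The 5 min values lay on both sides of NT and the 60 min values above it, with mean differences of 785 and 5994 bases. These differences were -3264.5 and 634.5 bases once DRIP peaks met by RNase H peaks were removed. A peak of 4084 bp over its start site, chr17:62499629-62503712, had identical edges in NT replicate 1, NT replicate 2 and 60 min replicate 1, between the Ssp I and Xba I sites shown above. It was wider on the left in 5 min replicate 2 and 60 min replicate 2 and split in 5 min replicate 1. Its percentile was 52.4 and 93.3 in NT, 95.4 and 99.8 at 5 min (in replicate 1 for the larger piece), and 94.1 and 99.4 at 60 min, with the values of each treated group above both NT values. In the 3′ part of the gene an interval was met in all 4 CPT lists and in neither NT list. It was a peak of 1477 bp with identical edges in 3 of these lists, and in 5 min replicate 1 the peak was 699 bp. RNase H peaks of 5 min replicate 2 and 60 min replicate 2 also met this interval. This was the 1 interval of 74 in the whole set with a peak in both 5 min replicates and neither NT replicate, as 2.69% of all merged intervals were. Past the 3′ end, peaks began at the same base in NT replicates 1 and 2, 5 min replicate 2 and 60 min replicate 1. That base lies within POLG2, which takes up 3801 bases of the window. CEP95, on the opposite strand, takes up 6335 bases, 1335 of them in the DDX5 body. Peaks in these stretches cannot be given to DDX5 alone. Without flanks the mean difference from NT at 60 min was 3004 bases.

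XRN2 encodes the 5′-3′ exonuclease that degrades the RNA left on polymerase after cleavage at gene ends. It had 0 and 0 covered bases in NT, 0 and 3040 at 5 min, and 1130 and 6767 at 60 min. It was thus the 1 gene with peaks in both 60 min lists and in neither NT list, and 5 min replicate 1 had none either. Its peaks in both 60 min lists shared the interval chr20:21285111-21289259, in an intron from about 1 to 5 kb past the start site. DRIP peaks of 5 min replicate 2 and peaks of 2 RNase H lists also met that interval. In 60 min replicate 2 that interval was a single peak at percentile 94.0, and in replicate 1 it was met by peaks of 807 and 323 bp at percentiles 59.5 and 4.78. The start site was under a DRIP peak of 404 bp in 60 min replicate 2 only. In replicate 2, RNase H peaks covered 2891 bases of the window at 5 min and 6559 at 60 min, and in replicate 1 none.

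**Figure D3:**
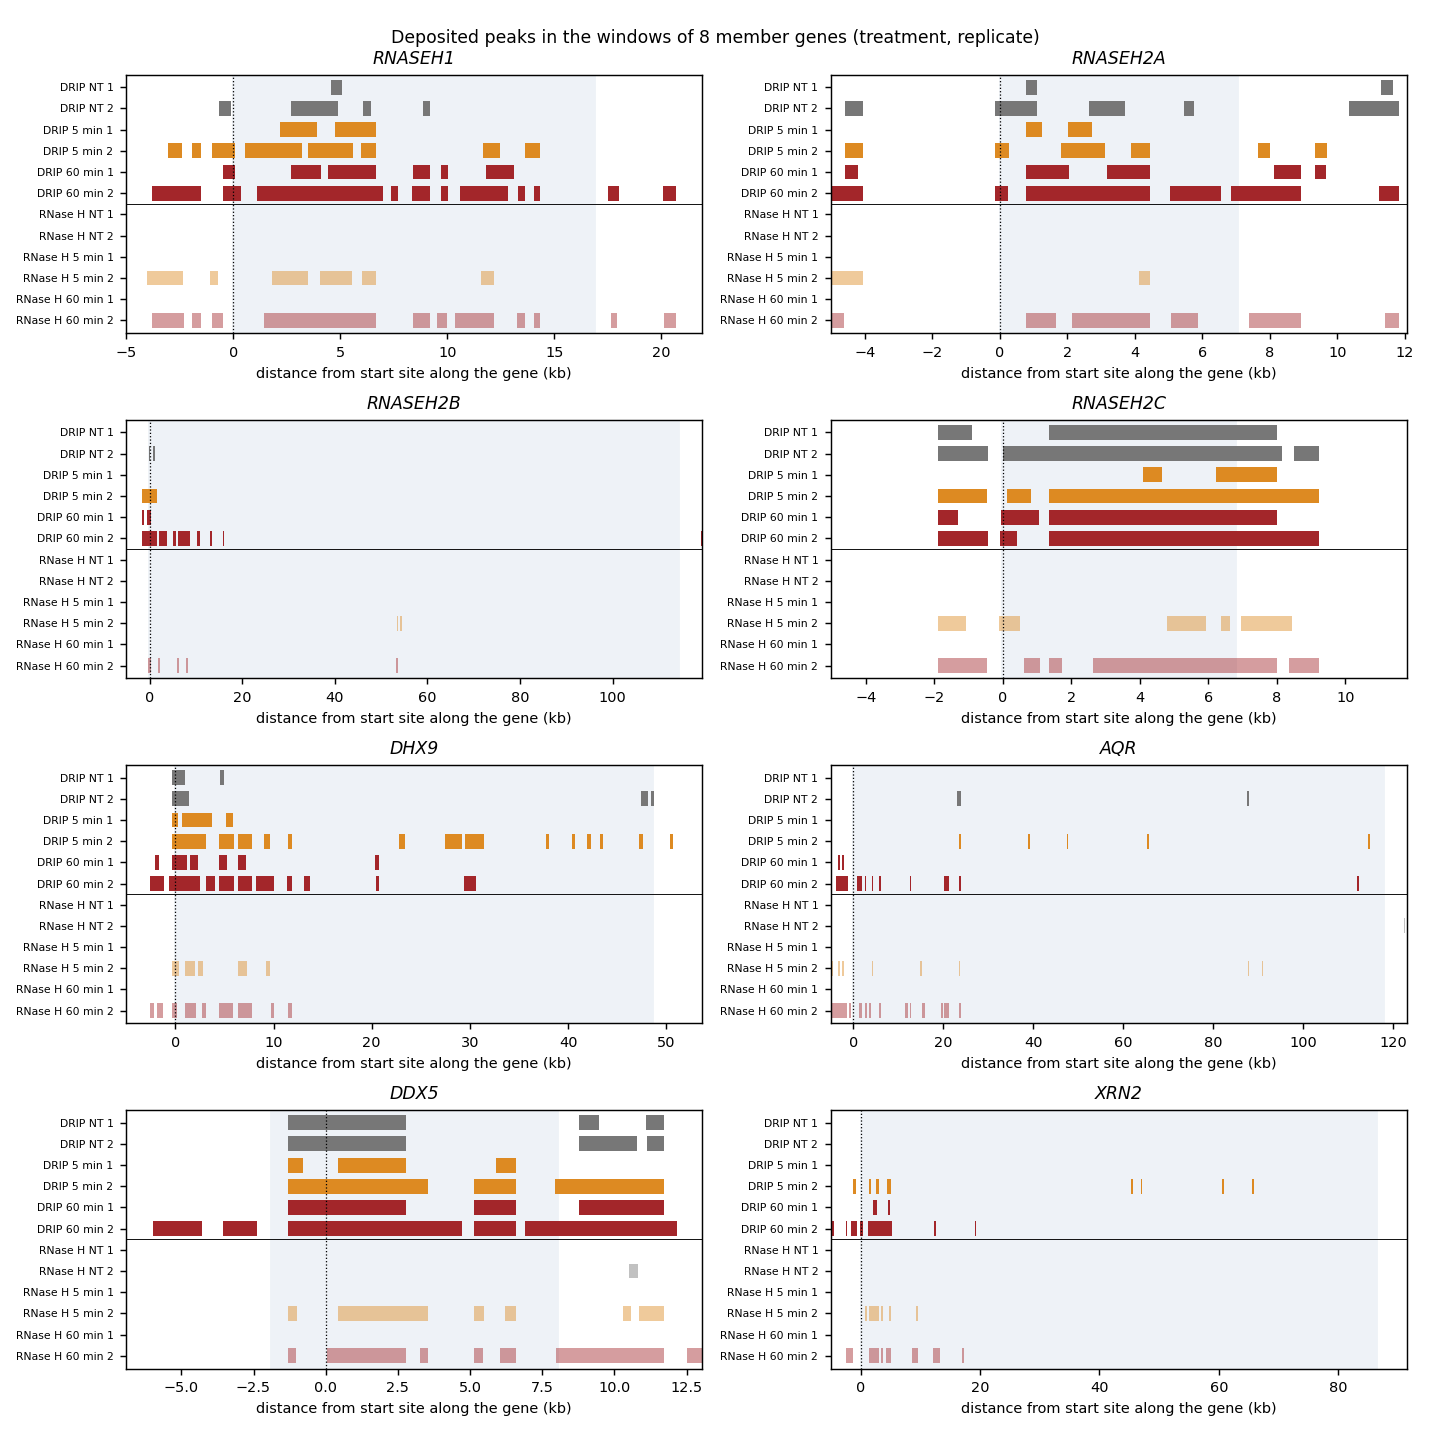
Peaks in the windows of the 8 readable genes, as bars placed by distance from the start site along the gene in kb (dotted line, 0), with 1 row for each of 6 DRIP lists (solid) and 6 RNase H lists (pale). Grey is NT, orange 5 min and red 60 min of CPT, the shaded span is the annotated gene, and each panel has its own scale. Rows of replicate 2 hold most of the bars, and the replicate 1 rows of the RNase H lists are empty.

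The peaks were also placed by feature, without the share of the windows that each feature makes up. By the position of the summit, 92 of 180 DRIP peaks lay in introns, 36 in the upstream flank, 24 in the downstream flank, 17 in UTRs, 7 in coding exons and 4 in exons of non-coding transcripts. Of the 180 summits, 89 were within 5 kb of the start site of their gene, and 25 peaks covered a start site. The peaks merged into 74 intervals. Of these, 5 were met in all 6 lists, 1 each in RNASEH1, RNASEH2A, RNASEH2C, DHX9 and DDX5. In contrast, 42 were met in 1 list, and 51 in replicate 2 lists alone. Shares over all merged intervals were not taken for these counts, so nothing particular to these genes is read from them. Peaks of both 60 min replicates and neither NT replicate made 9 intervals, in RNASEH1 (2), RNASEH2A (1), DHX9 (3), AQR (1), DDX5 (1) and XRN2 (1). The reverse, both NT replicates and neither 60 min replicate, made 0. Over all merged intervals of the 6 DRIP lists these shares were 5.87% and 2.48%, in lists that were longer at 60 min than in NT. Of the 9 intervals, 8 also met a peak of an RNase H list, and the same share over all merged intervals was not taken.

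**Figure D4:**
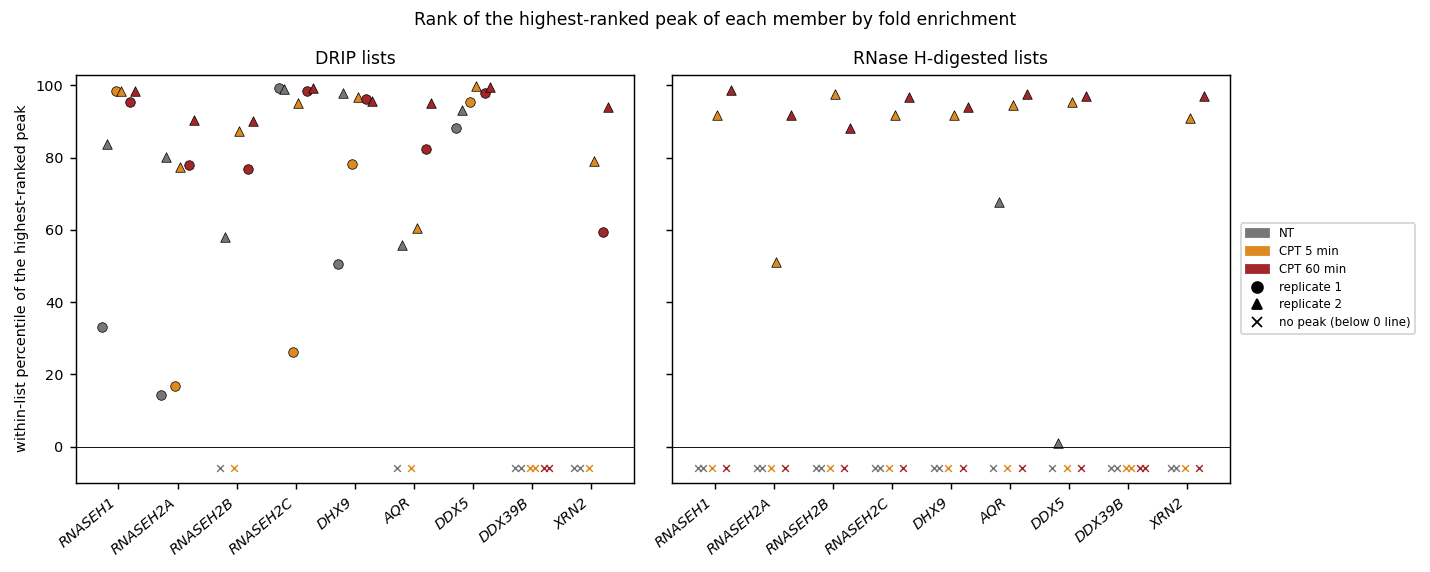
Percentile of the highest-ranked peak of each gene within its list by fold enrichment (100, top of the list), in DRIP lists (left) and RNase H lists (right). Circles are replicate 1, triangles replicate 2, and crosses below the 0 line mark a list with no peak. In DRIP lists RNASEH2C and DDX5 stay above 88 except for RNASEH2C in 5 min replicate 1 (26.2), and the right panel holds no circle.

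The RNase H lists held no peak of these genes in replicate 1 and many in replicate 2. In replicate 1 no RNase H list had a peak in any of the 9 genes, where 21.3% of all genes had one in at least 1 of the 3 lists, and 0 of the 10, 12 and 29 DRIP peaks in NT, 5 min and 60 min met one. In replicate 2, AQR and DDX5 had an RNase H peak in NT, 2 of 9 genes against 28.9% of all genes. All 8 readable genes had one at 5 min, against 61.0%, and at 60 min, against 68.6%. In NT of replicate 2, 1 of 22 DRIP peaks met an RNase H peak, where 10.8% of all DRIP peaks did. At 5 min 21 of 48 did (all peaks 33.0%) and at 60 min 41 of 59 (all peaks 49.0%). In RNASEH1 it was 6 of 8 DRIP peaks at 5 min and 10 of 11 at 60 min. In DDX5 it was 3 of 3 and 3 of 5, and in DHX9 3 of 14 and 7 of 10. The RNase H peaks were not only weak ones: the highest-ranked reached percentile 98.6 in RNASEH1, 97.7 in AQR and 97.1 in DDX5 at 60 min. In RNASEH1, the RNase H peak of 5 min replicate 2 began at the same base, 3599246, as the DRIP peak. The RNase H lists of replicate 1 were also far shorter than those of replicate 2, and the part of list length in the difference between replicates was not tested.

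A wider list of 48 other genes that act on hybrids (helicases, THO and export factors, topoisomerases, RNA decay and termination factors, repair factors) was read the same way. Of these, 36 (75.0%) had a DRIP peak in both NT replicates, 41 (85.4%) in both at 5 min and 45 (93.8%) in both at 60 min. The shares over all genes were 44.8%, 48.8% and 58.8%. At 60 min 24 had more covered bases than in either NT library and 1 had fewer, RECQL5, a RecQ helicase. Over all genes 24.4% had more and 6.62% had fewer. At 5 min 10 had more and 4 had fewer, namely ALYREF, DDX41, PIF1 and RECQL5, against 13.9% and 14.8% of all genes. Nothing particular to these genes is read from the counts, since window length was not matched. Among 16 other helicases 8 had more at 60 min, among 9 RNA decay and termination factors 6, among 6 topoisomerases and TDRD3 4, among 9 THO, export and splicing factors 3, and among 8 repair factors 3.

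Up to 2 genes of each group of the wider list are named, those with peaks in the most DRIP lists and, among ties, the highest mean coverage. THOC6, a THO complex subunit, had 13729 and 13729 bases covered in NT, its whole window, 9631 and 13729 at 5 min, and 12841 and 13729 at 60 min. ALYREF, an mRNA export adaptor, had 12837 and 13752 in NT, 7188 and 12818 at 5 min, and 6550 and 13230 at 60 min. In both the low values were those of replicate 1 with CPT. DDX41, a DEAD-box helicase, had 8510 and 10785 in NT and 1256 and 5210 at 5 min, so that the groups did not overlap, and 7644 and 10997 at 60 min. RTEL1, a helicase of telomere maintenance, had 22518 and 33544 in NT, 7627 and 23210 at 5 min, and 18228 and 32039 at 60 min. CPSF4, of the 3′ end cleavage complex, had 6812 and 13268, 1355 and 8804, and 8452 and 20241 in the same order. DDX41 and ALYREF were thus lower in both 5 min libraries than in either NT library, and THOC6, RTEL1 and CPSF4 overlapped NT. EXOSC10, the nuclear exosome nuclease, averaged 9.84% of its window over the 6 lists. FANCA, of the Fanconi anaemia core complex, averaged 26.0%, and RAD52, a strand-annealing protein, 3.54%. RAD52 was the 1 of these 3 with more covered bases at 60 min (2754 and 10864) than in NT (814 and 1149). The topoisomerases TOP3B, which also acts on RNA, and TOP3A averaged 19.9% and 11.2%.

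The genes most like RNASEH2C and DDX5 in covered share were found by the mean absolute difference over the 12 lists. For RNASEH2C these were KAT5, at 1.38 percentage points, which shares its bases, then HYI (3.32) and FBXW5 (3.37). For DDX5 they were C1orf122 (1.76), LRRC59 (3.27) and RPS10 (3.3). This likeness describes peak coverage alone, in lists that share their lengths, and has no test.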

How the data were processed

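Peak lists of 6 DRIP and 6 RNase H libraries were used; inputs served only in the authors' peak calling. Per the labels and methods, the authors trimmed reads (cutadapt), aligned them to hg19 and sacCer3 (BWA), removed blacklisted regions and duplicates (SAMtools) and called peaks per library against its input with MACS2. The deposited columns are fold enrichment (a ratio), -log10 p and -log10 q at the summit, a score and a summit offset; the score was not used. The calling threshold is not given in the sources used here. Lowest -log10 q values were 1.30 to 1.31.

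Members were the 9 listed genes with GENCODE release 44 coordinates lifted to GRCh37, plus 5 kb per side, and any overlap of 1 bp counted. The members and lists were chosen with earlier results of these data known. Named were all 9 members, at most 2 genes per wider group (most lists, then mean covered share), 3 genes most like each of the 2 most covered members, and recurrent or highest-ranked peaks; other peaks, PIF1 and RECQL5 were named after their values were seen. Alternatives were other flanks, a -log10 q floor of 3, equalised lists (30314 DRIP, 473 RNase H), majority overlap, removal of DRIP peaks met by RNase H peaks, each replicate left out, the replicate block, ranks by -log10 p and a 10 bp tolerance. Replicate numbers are those of the labels; the correlation across genes of replicate differences between treatments was 0.57 to 0.68, and no shared batch is stated. Some sequences at peak edges and summits are not reported here. Steps were tested on simulated lists. Python 3.11.15, NumPy 2.4.6, pandas 2.3.3, SciPy 1.17.1, pysam 0.24.0 and Matplotlib 3.10.9 were used.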

Additional observations from a re-analysis of the deposited data

How the results depend on the processing

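The 5 members with a DRIP peak in both NT replicates became 2 at a -log10 q of at least 3, and the 5 at 5 min became 3 without DRIP peaks met by RNase H peaks. That removal also left 1 gene above NT at 5 min (2 before) and 2 at 60 min (5 before), and put 2 below NT at 5 min (0 before). RNase H peaks in NT, in 2 genes, were in 0 without flanks, 4 with 10 kb flanks and 1 at the stricter q; with equal list lengths they were in 0 genes in NT, at 5 min and at 60 min, since the lists then held 473 peaks. With the replicate block, 2 genes were higher in each replicate pair at 5 min, against 6 on average, and 7 against 8 at 60 min; its exact p cannot go below 0.5.

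Leaving out replicate 1 or 2 gave 5 to 8 genes with a DRIP peak at 5 min, 3 to 6 above NT and 2 below at 5 min, 7 to 8 above and 0 to 1 below at 60 min, 3 to 6 higher on average at 5 min, and 0 to 2 genes with an RNase H peak in NT and 0 to 8 at 5 and 60 min.

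The mean difference from NT turned sign for DDX5 at 5 min (-1857 without replicate 2 and 3427 without replicate 1, -3264.5 without RNase H-met peaks), RNASEH2A at 5 min (494 without replicate 2 and -1089 without replicate 1, 269 without flanks) and at 60 min (-439 without RNase H-met peaks), and RNASEH2C at 60 min (-517 without replicate 1 and 710 without replicate 2, -200.5 at the stricter q and with equal list lengths, -4580.5 without RNase H-met peaks). The cause was not tested. Ranks by -log10 p, majority overlap and the 10 bp tolerance moved no count or median past its limit. Depth limits which peaks were called and is not in the lists.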
